A study of Homo sapiens with 6 samples.

Results

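The chemokines and the lipocalin that IL-17 cytokines are known to induce in epithelial cells were followed in A549 cells that overexpressed IL17D. The genes were CXCL1, CXCL2, CXCL3, CXCL5, CXCL8, CXCL16, CX3CL1, CCL2, CCL20 and LCN2, and they were taken by name from the deposited table, in which they make up 10 of 58735 genes. A549 is a human lung adenocarcinoma cell line. The cells of one group carried a lentiviral vector with the IL17D reading frame behind the human PGK promoter, and the control cells carried the empty vector, so all 6 libraries come from cells with a vector. There were 3 libraries in each group, grown in the same medium with serum. No source used here says whether the replicates were separate transductions or cultures, so the tests measure the spread between these libraries, which may be technical.

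Chemokines are small secreted proteins that guide leukocytes along a gradient. The CXC chemokines with an ELR motif (CXCL1, CXCL2, CXCL3, CXCL5 and CXCL8) attract neutrophils through CXCR1 and CXCR2. CCL2 draws monocytes through CCR2, CCL20 draws TH17 cells and dendritic cells through CCR6, and CXCL16 and CX3CL1 are made as membrane proteins that proteases release from the cell surface. LCN2 is a lipocalin that binds bacterial siderophores and so withholds iron. In epithelium, IL-17A signals through its receptor and the adaptor ACT1 to NF-kB, to C/EBP factors and to the stabilization of chemokine mRNAs. IL-17D is a less studied member of the same cytokine family, and the study asked what it does to lung cancer cells.

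The counts on genes totalled 14319398 to 16521021 per library. IL17D had 18 to 34 counts in the control libraries and 26772 to 32155 counts in the IL17D libraries, so every library matched its label. The keratin genes KRT8 and KRT18 had means of 7648 and 3591 CPM (counts relative to the library total, scaled by TMM) in control cells, whereas the epithelial markers EPCAM and KRT19 were low, with 1.05 and 0.370 CPM. CDH1, which encodes E-cadherin, had 43.4 CPM in control and 35.7 CPM in IL17D libraries (adjusted p = 0.0306 in the edgeR test). Of 7 leukocyte markers, PTPRC and CD3E were at 0 counts in all libraries and 1, ITGAM, had a mean above 1 CPM. The 7 summed to 2.42 to 3.38 CPM in control and 3.36 to 4.19 CPM in IL17D libraries. The summed level of 4 endothelial markers was 0.669 to 1.31 CPM over both groups, and that of 5 fibroblast markers, nearly all of it COL1A1, was 19.4 to 24.6 CPM. The part of other cells in the results below was not tested, and in bulk RNA more cells of a kind and more RNA per cell cannot be told apart.

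The 5 ELR chemokine genes lie within 359 kb of chromosome 4 (GRCh38), and their promoters share a short sequence. Promoter sequence from RefSeq (GRCh38.p14) was at hand for 7 of the genes. In the 250 bases before the RefSeq start, the 9 letters GGAATTTCC were found in 5 of these, which are the 5 ELR genes, and in 0.413% of all 35116 promoters on either strand. The NF-kB consensus was found in 6 of the 7, namely in the ELR genes other than CXCL8 and in CCL20 and LCN2, and in 5.21% of all promoters. The 9 letters overlap the consensus in 4 of the genes. The motifs were chosen after values or sequences were seen, and CXCL1, CXCL2 and CXCL3 are close relatives. These counts therefore describe the promoters and are not independent matches. The 30 bases around each match are shown because NF-kB is the factor through which IL-17 signaling is best known to act on these genes. They are written on the strand of the gene, with the matched run in capitals.
CXCL1: tggaactccGGGAATTTCCCtggcccgggg
CXCL2: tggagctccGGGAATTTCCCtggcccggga
CXCL3: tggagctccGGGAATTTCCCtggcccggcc
CXCL5: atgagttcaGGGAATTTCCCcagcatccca
CXCL8: tgcaaatcgtGGAATTTCCtctgacataat
CCL20: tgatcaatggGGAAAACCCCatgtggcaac
LCN2: cagcactccgGGAATGTCCCtcactctccc

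These windows lie at chr4:73869305-73869334 (plus strand) for CXCL1, chr4:74099253-74099282 (minus) for CXCL2, chr4:74038748-74038777 (minus) for CXCL3, chr4:73998748-73998777 (minus) for CXCL5, chr4:73740468-73740497 (plus) for CXCL8, chr2:227813753-227813782 (plus) for CCL20 and chr9:128149268-128149297 (plus) for LCN2. In GENCODE 29 the windows of CXCL1 and CXCL8 are intergenic and those of CCL20 and LCN2 lie in an intron of 1 longer transcript of the same gene. Those of CXCL2, CXCL3 and CXCL5 lie in a noncoding exon stretch of 1 transcript that starts further upstream. For CXCL5 this is the only transcript of the gene in GENCODE 29. The genes without a promoter sequence here lie at chr17:34255218-34257203 (plus) for CCL2, chr17:4733526-4739922 (minus) for CXCL16 and chr16:57372458-57385048 (plus) for CX3CL1. The runs of CXCL1, CXCL2, CXCL3 and CXCL5 are the same 11 letters, and those of CXCL1 and CXCL3 begin 79 bases, that of CXCL2 78 bases and that of CXCL5 91 bases before the start. The run of CXCL8 has 9 of these letters and also begins at 91 bases. CXCL8 further holds the AP-1 type motif TGANTCA at 137 bases and LCN2 holds it at 52 bases before the start, as do 6.57% of all promoters on either strand. A match of letters is a description and shows no binding. The log2 fold changes of the 4 genes with the same run were -0.014 for CXCL1, 0.090 for CXCL2, -0.11 for CXCL3 and -0.015 for CXCL5. Those of the other genes with a printed window were 0.24 for CXCL8, 0.69 for CCL20 and -0.78 for LCN2. None of these genes passed the test, and a link between the sequences and the fold changes was not tested.

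Per length, CXCL5 was the most abundant of the 10 genes. TPM values, which divide counts by gene length and by the total of these ratios, were computed from the deposited lengths to compare genes with each other, and are given as mean ± SD of the libraries of a group. In control cells, CXCL5 had 504 ± 12.2 TPM, CXCL1 had 110 ± 1.69 TPM (SD, n = 3 each), CXCL2 51.2 ± 1.37 TPM and CCL2 50.1 ± 2.52 TPM. CXCL8 followed with 35.4 ± 2.85 TPM, CXCL16 with 30.3 ± 0.816 TPM and CXCL3 with 20.7 ± 1.23 TPM. The lowest levels were those of LCN2 with 6.31 ± 2.05 TPM, CCL20 with 3.87 ± 1.13 TPM and CX3CL1 with 0.299 ± 0.256 TPM (SD, n = 3 each). In this order the libraries of CXCL2 and CCL2 overlapped, and so did those of LCN2 and CCL20, while all other neighbours lay apart. In IL17D cells the order was the same but for both of these pairs, in which CCL2 with 58.7 ± 2.45 TPM stood above CXCL2 with 54.1 ± 1.16 TPM, and CCL20 with 6.16 ± 0.623 TPM above LCN2 with 3.62 ± 0.356 TPM (SD, n = 3 each), without overlap. The place of CCL2 depended on the length used: with the longest transcript it had 76.7 TPM in control cells, above CXCL2 with 48.4 TPM. CXCL5 alone held 68.5% to 71.0% of the counts on the 10 genes in every library. The summed level of the 10 genes was 543.2 to 559.5 CPM in control and 548.7 to 558.1 CPM in IL17D libraries, so the groups overlapped in the total.

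**Figure D1:**
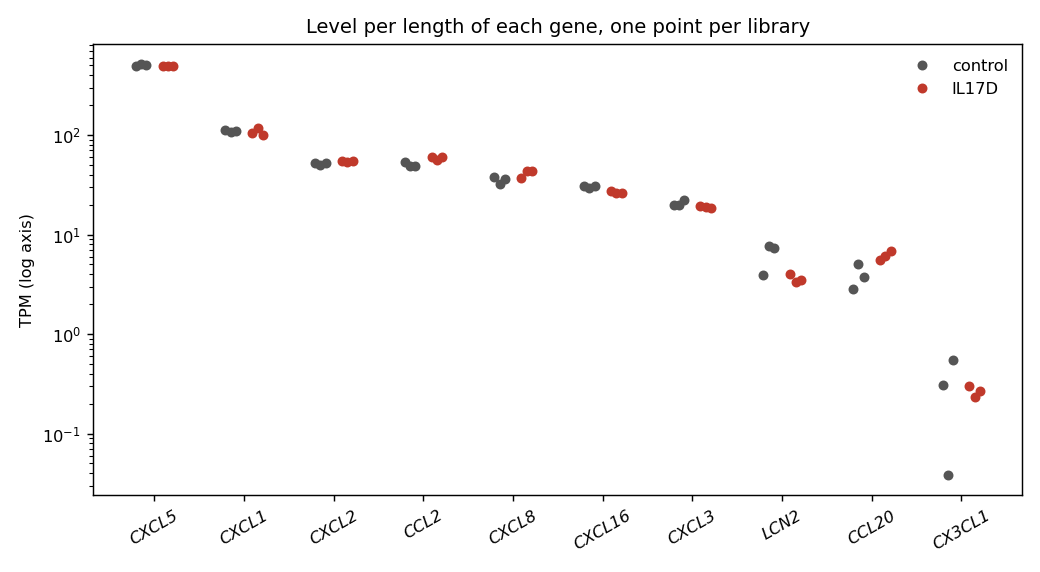
Level per length of the 10 genes in TPM on a log axis, one point per library, with control libraries in grey and IL17D libraries in red, ordered by the control mean. CXCL5 lies highest with a control mean of 504 TPM and CX3CL1 lowest, and the red points stand above the grey ones for CXCL2, CCL2 and CCL20 and below them for CXCL3 and CXCL16.

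None of the 10 genes passed the test between the groups. Each of the 15754 genes with enough counts was compared with edgeR's quasi-likelihood test, which left 9 of the 10 genes, all but CX3CL1. With Benjamini-Hochberg adjustment over all tested genes, 0 of the 9 had an adjusted p under 0.05 in either direction, where 0.673% of all tested genes passed upwards and 0.908% downwards. Limma voom also called 0, and so did the DESeq2 Wald test, which gave no adjusted p for CCL20 and LCN2. By unadjusted p under 0.05 from edgeR, 3 of the 9 were higher in IL17D libraries (CXCL8, CCL2 and CCL20) and 2 were lower (CXCL16 and LCN2), beside 5.59% and 5.99% of all tested genes. Apart from that, 3 of the 9 (CXCL2, CCL2 and CCL20) had all IL17D libraries above all control libraries and 2 (CXCL3 and CXCL16) had them below, beside 7.48% and 8.31% of all tested genes. The median log2 fold change of the 9 was -0.014, with 4 above 0 and 5 below, and the median over all tested genes was -0.00044. In size, the median was 0.171 for the 9 and 0.0839 for all tested genes.

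**Figure D2:**
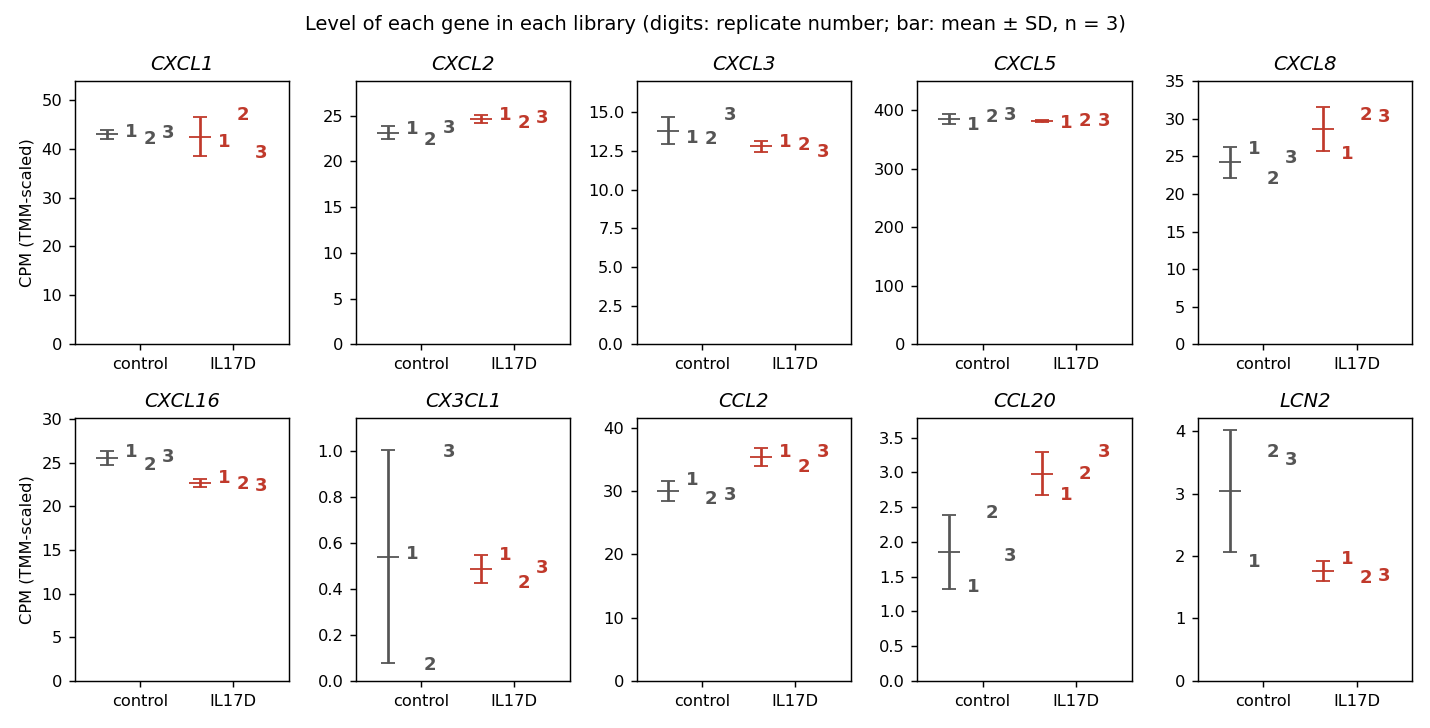
Level of each gene in each library in CPM, scaled by TMM, with a separate axis from 0 for each gene. Digits are replicate numbers, and bars are the mean and SD of the 3 libraries. The groups do not overlap for CXCL2, CXCL3, CXCL16, CCL2 and CCL20, and LCN2 of control replicate 1 lies among the IL17D libraries.

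Of the ELR chemokines, CXCL5 and CXCL1 had the log2 fold changes nearest to 0, and that of CXCL5 was measured more closely. CXCL5, a neutrophil attractant of epithelial cells, had 375.1, 388.9 and 391.6 CPM in control replicates 1, 2 and 3 and 379.3, 382.4 and 382.1 CPM in IL17D replicates 1, 2 and 3. The IL17D libraries lay within the range of the control libraries. The log2 fold change was -0.015 (standard error 0.033, adjusted p = 0.923 in the edgeR test), and its 95% interval runs from -5.47% to 3.64%. CXCL1, first known as a melanoma growth factor, had 43.5, 42.0 and 43.3 CPM in control and 41.5, 46.8 and 39.1 CPM in IL17D replicates 1, 2 and 3. The control libraries lay within the range of the IL17D libraries, and the log2 fold change of -0.014 (95% interval -0.15 to 0.13, adjusted p = 0.975 in the edgeR test) turned to 0.042 without IL17D replicate 3 and to 0.0057 without IL17D replicate 1. The SD of CXCL1 in IL17D libraries was 3.96 CPM, 2.41 times what counting alone gives.

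CXCL2 and CXCL3, the close relatives of CXCL1, separated the groups in opposite directions by small amounts. CXCL2 had 23.5, 22.3 and 23.6 CPM in control and 25.1, 24.2 and 24.7 CPM in IL17D replicates 1, 2 and 3. All IL17D libraries were above all control libraries, and the difference in log2 was 0.090 (standard error 0.083, adjusted p = 0.753 in the edgeR test). CXCL3 had 13.4, 13.3 and 14.8 CPM in control and 13.1, 12.9 and 12.4 CPM in IL17D replicates 1, 2 and 3. All IL17D libraries were below all control libraries, and the log2 fold change was -0.11 (standard error 0.11, adjusted p = 0.776 in the edgeR test). Counting alone gives an error of 5.09% to 7.06% of the level for these genes in a single library. The differences of 6.44% for CXCL2 and -7.37% for CXCL3 are between means of 3 libraries, for which the counting error is smaller. Their unadjusted p were 0.283 and 0.316 in the edgeR test. The SD between libraries was below the counting error in both groups. It was 0.589 times this error in control and 0.338 times in IL17D cells for CXCL2, and 0.915 and 0.384 times for CXCL3. Reads can be shared between the 3 relatives, since of the 31-base stretches in their GENCODE 29 transcripts 14.4% of those of CXCL1, 22.4% of those of CXCL2 and 9.54% of those of CXCL3 occur in other genes, mostly in each other. Their summed level was 80.4, 77.6 and 81.7 CPM in control and 79.6, 83.9 and 76.3 CPM in IL17D replicates 1, 2 and 3. The sum had a log2 fold change of 0.0013 (95% interval -0.10 to 0.11, adjusted p = 0.997 in the edgeR test), which is -6.86% to 7.55% of the control level.

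CXCL8, or interleukin-8, was the ELR chemokine with the largest difference. It had 26.0, 22.0 and 24.8 CPM in control and 25.3, 30.5 and 30.2 CPM in IL17D replicates 1, 2 and 3. IL17D replicates 2 and 3 were above every control library, while IL17D replicate 1 was below control replicate 1. The means were 24.2 ± 2.04 and 28.6 ± 2.92 CPM (SD, n = 3 each). This gave a log2 fold change of 0.24 (standard error 0.087, 95% interval 4.27% to 33.3% higher). The unadjusted p of CXCL8 from the edgeR test was 0.0101 and its adjusted p 0.225. The SD between libraries was 1.64 times the counting error in control and 2.15 times in IL17D cells. Without control replicate 2 the unadjusted p was 0.074, and without IL17D replicate 2 it was 0.0576. No 31-base stretch of CXCL8 occurs in another gene.

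Both CC chemokines had higher values in all IL17D libraries. CCL2, the monocyte attractant MCP-1, had 31.8, 28.8 and 29.4 CPM in control and 36.2, 33.8 and 36.2 CPM in IL17D replicates 1, 2 and 3. The lowest IL17D library was above the highest control library, and the SDs of 1.57 CPM in control and 1.36 CPM in IL17D cells were 1.13 and 0.904 times what counting alone gives. The log2 fold change of CCL2 was 0.24 (standard error 0.073, 95% interval 6.33% to 30.7% higher). It had the smallest unadjusted p of the 10 genes, 0.00267, and its adjusted p was 0.108 in the edgeR test. Over all alternatives its adjusted p ranged from 0.0963 to 0.338. The study also measured CCL2 by quantitative PCR in A549 cells expressing IL17D. It did not name CCL2 among the genes that were significantly raised there.

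CCL20, the ligand of CCR6 and a common readout of IL-17 signaling in epithelium, had the largest positive difference at a low level. Its counts were 22, 35 and 29 in control and 44, 49 and 47 in IL17D replicates 1, 2 and 3. This was 1.35, 2.42 and 1.80 CPM in control and 2.68, 2.98 and 3.29 CPM in IL17D libraries. The groups did not overlap, and the gap between control replicate 2 and IL17D replicate 1 was smaller than the spread among control libraries. The log2 fold change was 0.69 (standard error 0.27, fold 1.61 with a 95% interval of 1.10 to 2.34). The unadjusted p of CCL20 was 0.0146 and the adjusted p 0.270 in the edgeR test. Counting alone gives an error of 18.7% of its level in a control library. Without control replicate 1 the log2 fold change was 0.50 with an unadjusted p of 0.0871, and without control replicate 2 it was 0.91.

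Of the membrane-bound chemokines, CXCL16 had lower values in the IL17D libraries and CX3CL1 was near the limit of detection. CXCL16, a ligand of CXCR6 and a scavenger receptor for oxidized lipoprotein, had 26.2, 24.7 and 25.7 CPM in control and 23.2, 22.5 and 22.3 CPM in IL17D replicates 1, 2 and 3. The groups did not overlap. The log2 fold change was -0.17 (standard error 0.082, 95% interval -0.34 to -0.0040), with an unadjusted p of 0.045 and an adjusted p of 0.416 in the edgeR test. The unadjusted p of CXCL16 was 0.0467 without control replicate 2 and ranged from 0.054 to 0.121 without each of the other libraries. CXCL16 overlaps MED11 on the other strand, and no source used here says that the counting used strand. MED11 had 7.77 to 10.7 CPM in control and 9.04 to 11.3 CPM in IL17D libraries (adjusted p = 0.917 by edgeR). CX3CL1, or fractalkine, had 9, 1 and 16 counts in control and 9, 7 and 7 counts in IL17D replicates 1, 2 and 3. Both groups were under 1 CPM and overlapped. The 1 count of control replicate 2 is below the 3 counts that a count of 0 was taken to allow. Tested with all genes that had at least 1 count, CX3CL1 had a log2 fold change of -0.17 with a 95% interval of -1.28 to 0.94. This interval includes 0 and wide changes in both directions. The SD of CX3CL1 in control cells was 2.53 times what counting alone gives.

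LCN2, the lipocalin, had lower values in IL17D cells than in 2 of the 3 control libraries. Its counts were 31, 53 and 57 in control and 32, 27 and 24 in IL17D replicates 1, 2 and 3. This was 1.91, 3.66 and 3.54 CPM in control and 1.95, 1.64 and 1.68 CPM in IL17D libraries. Control replicate 1 lay among the IL17D libraries, and the SD of 0.981 CPM in control cells was 2.21 times the counting error. The log2 fold change was -0.78 (standard error 0.28, fold 0.582 with a 95% interval of 0.394 to 0.860), with an unadjusted p of 0.00807 and an adjusted p of 0.199 in the edgeR test. Without control replicate 1 the log2 fold change was -1.03 and the adjusted p 0.0607. Without control replicate 2 it was -0.63 with an adjusted p of 0.518.

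**Figure D3:**
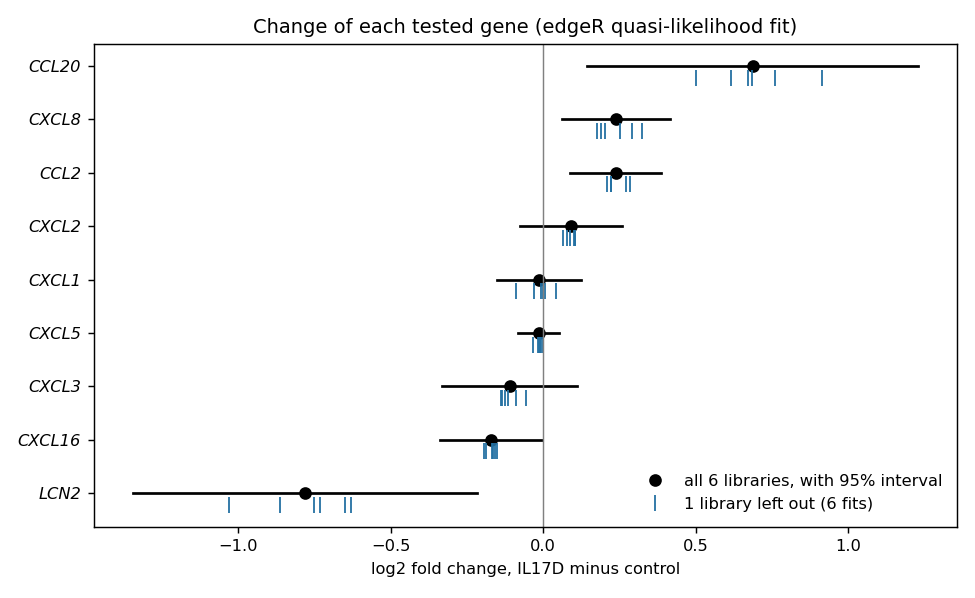
Log2 fold change of the 9 tested genes between IL17D and control cells, as a dot with its 95% interval from the edgeR fit, and as 6 blue ticks for the fits that leave out 1 library each. The intervals of CCL20, CXCL8 and CCL2 lie above 0 and those of CXCL16 and LCN2 below 0, none of them with an adjusted p under 0.05, and only the ticks of CXCL1 fall on both sides of 0.

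The other chemokines and the receptors on the lists examined were hardly detected, and these lists do not hold every gene of either family. Of 26 other chemokine genes, 13 had no count in any library and 0 had enough counts to be tested. CCL5, a T cell and monocyte attractant, had 6 to 10 counts per library, and CCL26, an eosinophil attractant, had 7 to 14 in control and 2 to 6 in IL17D libraries. CCL3 and CCL4 attract macrophages. The study reported higher mRNA of both by quantitative PCR in A549 cells expressing IL17D. It also reported more of both proteins in their supernatant by ELISA. In the sequencing here, CCL3 and CCL4 had 0 counts in all 6 libraries, which allows up to 0.182 to 0.210 CPM and covers counting error only. CCL3L1 had 1 count in IL17D replicate 1, and CCL4L2 had 0 counts in all libraries. How the counting treated reads shared between similar genes is not given in the sources used here. Why PCR and ELISA differ from the sequencing was not tested. Of 19 chemokine receptors and decoys, 2 were tested and 0 called, while at an unadjusted p under 0.05 CXCR4 was higher and CCR7 lower in IL17D libraries, beside 5.59% and 5.99% of all tested genes. CCR7, the homing receptor of lymphoid tissue, had 2.25 ± 0.263 CPM in control and 1.33 ± 0.134 CPM in IL17D cells (SD, n = 3 each; adjusted p = 0.302 in the edgeR test). CXCR4, the receptor of CXCL12, had 0.636 ± 0.206 and 1.19 ± 0.368 CPM (SD, n = 3 each; adjusted p = 0.402 in the edgeR test). Of the receptors for the 10 genes' own products, CXCR1, CCR2 and CCR6 had 0 counts in all libraries, CXCR2 had at most 1, CX3CR1 at most 4 and CXCR6 at most 9 counts in a library.

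None of the genes that serve the release of membrane chemokines passed the test. In a list of 9 genes for shedding of chemokines and handling of lipocalin, 7 were tested and 0 called by edgeR, DESeq2 or limma voom. ADAM10, the sheddase that acts on CXCL16 and CX3CL1 in resting cells, had 252 ± 3.44 CPM in control and 252 ± 8.51 CPM in IL17D cells (SD, n = 3 each). RHBDF2, which brings ADAM17 to the cell surface, had 91.8 ± 3.79 and 94.3 ± 2.63 CPM. At an unadjusted p under 0.05, where 5.59% of all tested genes were higher, so was 1 of the 7, SLC22A17, a receptor of LCN2, at 7.11 CPM in control and 8.73 CPM in IL17D cells on average (log2 fold change 0.30, adjusted p = 0.410 by edgeR).

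Other targets of IL-17 were called in both directions. Of a list of 38, 17 were tested, and by edgeR 3 rose and 2 fell after adjustment over all genes, beside 0.673% and 0.908% of all tested genes. The list was chosen with earlier results of these data known, so these counts describe it and are no independent evidence about IL-17 targets. The median log2 fold change of the 17 was 0.025. NFKB2, a subunit of noncanonical NF-kB, rose from 128, 127 and 128 CPM to 150.5, 148 and 146 CPM (adjusted p = 0.00158 in the edgeR test). BIRC3, an inhibitor of apoptosis and target of NF-kB, rose from 81.9 ± 6.33 to 96.8 ± 2.12 CPM (SD, n = 3 each; adjusted p = 0.00687 in the edgeR test). PTGS2, or cyclooxygenase-2, rose from 28.0 ± 0.569 to 34.2 ± 2.84 CPM (SD, n = 3 each; adjusted p = 0.042 in the edgeR test). The log2 fold changes of the 3 were 0.22, 0.24 and 0.29, beside 0.24 for CXCL8 and for CCL2. The call of BIRC3 was lost without control replicate 1 (adjusted p = 0.0714 by edgeR), control replicate 2 (0.0646) or IL17D replicate 3 (0.0671). That of PTGS2 was kept without IL17D replicate 1 and lost without each of the other libraries, with adjusted p of 0.0823 to 0.268 by edgeR. PTGS2 also missed the threshold in DESeq2 (adjusted p = 0.0788) and in limma voom (0.0513). The genes that fell were the mucins MUC5AC (log2 fold change -0.88) and MUC5B (-0.31), and MUC5B lost its call without IL17D replicate 3 (adjusted p = 0.0753). Of the cytokines on the list, LIF alone had enough counts to be tested. IL6 had 0 counts in all libraries, CSF2 at most 1, CSF3 at most 2, IL1A at most 9 and IL1B at most 11. The calprotectin genes S100A8 and S100A9 had at most 1 and 6 counts in a library. LIF, an IL-6 family cytokine, had 280 ± 11.6 CPM in control and 278 ± 4.56 CPM in IL17D cells (SD, n = 3 each; adjusted p = 0.964 in the edgeR test).

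**Figure D4:**
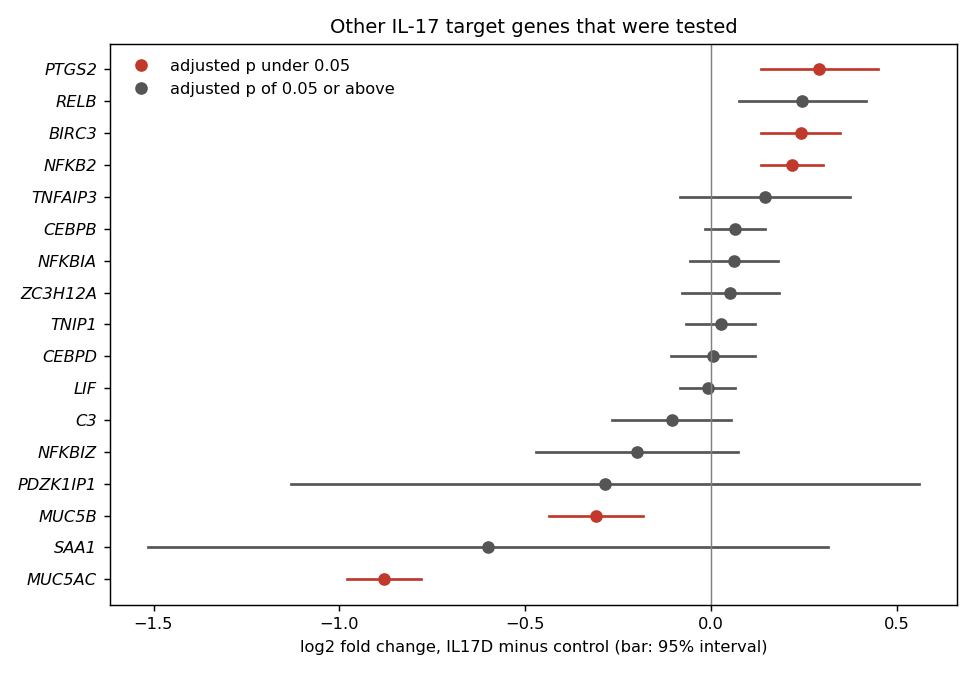
Log2 fold change of the 17 tested genes of the list of other IL-17 targets, as a dot with its 95% interval from the edgeR fit. The 5 genes with an adjusted p under 0.05 are in red, with PTGS2, BIRC3 and NFKB2 above 0 and MUC5B and MUC5AC below 0.

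The genes whose levels followed CCL2 most closely were looked up over the 6 libraries by the root mean square difference of log2 CPM after centring each gene. Among 9740 other genes with a mean of at least 10 CPM, the closest were FAM241B with a difference of 0.0252, TESC, which encodes the calcium-binding protein tescalcin, with 0.0284, and AC020916.1 with 0.0381. Their levels, like those of CCL2, were higher in the IL17D libraries than in the control libraries, which follows from how they were chosen.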

How the data were processed

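RNA was sequenced from 3 control and 3 IL17D-overexpressing A549 libraries. The authors deposited counts of reads per gene without normalization. The submitters' notes name Bowtie2 and hg38. The counting tool, its version and its use of strand are not given in the sources used here. All 10 genes have GENCODE 29 coordinates (GRCh38). The deposited gene lengths (other unit, in bases) were used for TPM. No per-sample column was left out.

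Genes were kept by filterByExpr (minimum count 10) and scaled by TMM in edgeR 4.0.16 (R 4.3.3). The groups were compared with glmQLFTest without covariates, two-sided, with adjustment over 15754 genes. Standard errors are the log2 fold change divided by the root of F, and 95% intervals use the moderated degrees of freedom. A count of 0 was taken to allow 3 counts. DESeq2 1.42.0 and limma 3.58.1 were alternatives. The steps were tested on simulated counts.

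The genes and lists were chosen with earlier results of these data known. Named genes are the 10, the called genes of each list (otherwise its 2 most abundant) and the 3 nearest to the gene with the smallest p. Genes named for another reason, such as CCL3, SLC22A17 or the receptors, and the motifs were chosen after values or sequences were seen.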

Additional observations from a re-analysis of the deposited data

How the results depend on the processing

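The 9 tested genes were refitted with 7 other settings (DESeq2 size factors, total counts, the DESeq2 Wald test, limma voom, all genes with at least 1 count, at least 10 counts in every library, and the replicate block) and without each of the 6 libraries. In none of these did a gene of the 10 have an adjusted p under 0.05. The log2 fold change kept its direction in 115 of 117 fits, the exceptions being those of CXCL1 (-0.0903 to 0.0416 when a library was left out, with 0.0057 without IL17D replicate 1 and 0.0416 without IL17D replicate 3). DESeq2 gave no adjusted p for CCL20 and LCN2. The count of genes lower at an unadjusted p under 0.05 was 2, and it was 1 in DESeq2, with all genes of at least 1 count, with the replicate block, and without each library (1 to 1). When a library was left out, the count of genes whose IL17D libraries all lay below the control libraries ranged from 2 to 4, with 4 without control replicate 1. The count with all of them above ranged from 3 to 4. Fewer libraries separate more easily, and the share over all tested genes was not computed for these fits. These counts therefore cannot be read against those from all libraries. The sum of CXCL1, CXCL2 and CXCL3, near 0 throughout, was -0.0017 with total counts, -0.0009 with all genes of at least 1 count, and -0.0355 to 0.0342 when a library was left out. Leaving out a library gave 69 to 129 upregulated and 76 to 138 downregulated genes, against 106 and 143 with all libraries, and 1 to 3 upregulated and 1 to 2 downregulated genes of the other IL-17 targets. Both were lowest without IL17D replicate 3, and the downregulated genes were 79 without IL17D replicate 1 and 95 without control replicate 2. The 1 upregulated target was found without control replicate 2 and without IL17D replicate 3. Same-numbered libraries did not deviate together (correlations of 0.018, -0.022 and -0.019), so the replicate block, with 115 genes up and 157 down, was not used. Scaling moved the median log2 fold change of all genes by -0.00301 to 0.00151. Counts were low for CCL20, LCN2 and CX3CL1, and their SD in control cells was also 1.54, 2.21 and 2.53 times that of counting alone. Differences between genes in their fold change were not tested.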
